A study of Mus musculus with 40 samples.

Results

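Transcripts of 41 genes of the autophagy machinery were followed in the extensor digitorum longus (EDL), a fast-twitch muscle of the mouse hindlimb. The members were chosen by gene symbol for their roles in autophagy and mitophagy, and all 41 were found among the 22844 genes of the deposited tables. They covered the kinase complex that starts autophagosome formation (5 genes), the lipid kinase complex that follows it (6), lipid transfer and lipid binding (5), the conjugation system (10), the LC3 and GABARAP proteins (5), cargo receptors (4), mitophagy (4) and fusion with lysosomes (2). All mice carried floxed Tsc1 alleles (strain Tsc1tm1Djk/J). TSCmKO mice lacked Tsc1 in skeletal muscle fibers, and control littermates (CON, Tsc1fl/fl) did not express Cre recombinase. The promoter that drives Cre is not given in the sources used here. Mice were 3 or 9 months old and received vehicle or rapamycin (written +RM) by injection for 3 days. The labels give 4 mg per kg, whereas a higher daily dose is named elsewhere by the study, and the dose is therefore uncertain. There were 8 groups of 5 mice, with 1 library of poly(A) RNA per muscle and 40 libraries in all.

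In autophagy, cytoplasm and organelles are enclosed in a membrane sac, the autophagosome, which fuses with lysosomes so that the content is broken down. The kinase complex mTORC1 blocks the start of this process by phosphorylating Ulk1 and its partner Atg13, and it keeps the transcription factors of the Tfeb family, which drive many lysosomal and autophagy genes, out of the nucleus. Tsc1 is part of the complex that holds mTORC1 in check, and rapamycin inhibits mTORC1. The values below are transcript levels. Protein levels, LC3 lipidation and the flux of material through autophagosomes were not analysed here.

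Total counts per library ran from 8883870 to 35224669. Tsc1 stood at 17.8 to 35.8 CPM (counts relative to the TMM-scaled library total, where TMM is a scaling that assumes most genes do not differ) in the 20 TSCmKO libraries and at 51.3 to 134 CPM in the 20 CON libraries, although counts per gene also take in exons that Cre does not remove. With rapamycin Tsc1 fell by 0.49 on the log2 scale in TSCmKO at both ages (adjusted p = 0.0249 and 0.0311 at 9 and 3 months) and differed by -0.58 in 3mCON (adjusted p = 0.0990) and -0.071 in 9mCON (adjusted p = 0.843), and neither difference between genotypes was called. The summed level of 6 muscle fiber markers (Acta1, Ckm, Myh4, Myh1, Tnnt3 and Pvalb) was 85692 to 100806 CPM in 9mTSCmKO, below the 132416 to 141998 CPM of 9mCON, and it was 125444 to 152359 CPM in 9mTSCmKO+RM. At 3 months the same sum was 87890 to 150058 CPM in TSCmKO and 103052 to 135477 CPM in CON. Other markers moved too: 4 of 6 tendon, 2 of 4 adipocyte and 2 of 5 endothelial genes were lower in 9mTSCmKO than in 9mCON, and rapamycin lowered 5 of 6 tendon and 5 of 6 macrophage genes in 9mCON. With rapamycin at 3 months the fiber sum was 132857 to 165489 CPM in TSCmKO, with 3 of 6 genes higher and 1 lower than under vehicle, as at 9 months. In 9mCON+RM the fiber sum was 159924 to 167179 CPM, above every library of 9mCON and of 9mTSCmKO+RM. In 3mCON+RM it was 127465 to 148989 CPM, overlapping with 3mCON. Of the 6 fiber genes 0 were called for rapamycin in CON at either age. The sum of 4 satellite cell markers was higher with rapamycin without overlap in all 4 settings, at 35.9 to 43.3 against 12.2 to 23.2 CPM in 9mTSCmKO, 32.4 to 52.3 against 17.01 to 24.4 CPM in 3mTSCmKO, 38.9 to 51.3 against 17.8 to 27.5 CPM in 9mCON and 31.4 to 37.1 against 22.1 to 26.4 CPM in 3mCON. Gene by gene, 2 of the 4 were called higher in 9mTSCmKO. Only 1 of 4 was called higher in each of 3mTSCmKO, 9mCON and 3mCON, and 0 were called lower. Fewer cells of a type and less RNA per cell cannot be told apart in whole muscle, and the part of these shifts in the autophagy values was not tested. Labels gave mean insert sizes of 175 to 239 nt (3 months) and of 223 to 308 nt (9 months), so that insert size and age were partly confounded.

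The E-box CACGTG is the core of the sites that Tfeb and its relatives bind, so the members that carry it just upstream of a start site are shown. Start sites and the 250 bases before them were taken from RefSeq (GRCm38.p6). Entries were found for 34 members, and Rb1cc1, Becn1, Pik3c3, Atg12, Atg16l1, Map1lc3a and Bnip3l had none. The 30 bases around each match are printed 5′ to 3′ on the strand of the gene, with CACGTG in capitals. The Atg7 start lies within the gene body (chr6:114643097-114860614) and not at its outer end.
Atg3: CACGTGtcctgggagagtcgagtCACGTGa
Atg5: agggcggagcgcttgcCACGTGgtcttggt
Atg7: catattggtggtCACGTGtgcagtaagtga
Bnip3: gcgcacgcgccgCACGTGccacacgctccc

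These windows lie at chr16:45158735-45158764 (Atg3, + strand), chr10:44268309-44268338 (Atg5, +), chr6:114670952-114670981 (Atg7, +) and chr7:138909597-138909626 (Bnip3, −). The E-box was present in 4 of 34 members and in 6.02% of all 32851 promoter windows of the same length, counting both strands. The longer CLEAR motif, which contains the E-box, was in 0 members and 0.24% of all windows. The FoxO motif GTAAACA was in 0 members and 3.17% of windows, the ATF4 composite motif TGATGNAA in 0 members and 3.45%, and the antioxidant motif TGACNNNGC in 3 members (Atg13, Tax1bp1 and Ulk2) and 10.2%. These are matches of letters in short windows before start sites and no measure of binding. Of the 4 genes shown, Atg5 passed none of the 13 tests of these data, Atg3 and Bnip3 had called differences in both directions, and the called differences of Atg7 were all upward.

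Expressed per transcript length as TPM (a share of all transcripts on a scale that is the same for every library), the members spanned more than 2 orders of magnitude. In 9mCON the lowest was Atg4c, a protease that processes LC3, at 5.78 ± 1.32 TPM, and the highest was Pink1, a kinase that marks damaged mitochondria, at 900.0 ± 83.3 TPM (mean ± SD, n = 5 here and below). Sqstm1, which encodes the cargo receptor p62, followed at 706 ± 80.9 TPM. Pink1 was the highest member in 6 of the 8 groups, the exceptions being 3mTSCmKO and 9mTSCmKO, where Sqstm1 led with 1389.9 ± 298 and 2139 ± 359 TPM. Among the LC3 and GABARAP genes of 9mCON the order was Map1lc3b (255 ± 20.8 TPM), Gabarap (219 ± 38.6), Map1lc3a (190.2 ± 15.7), Gabarapl2 (143 ± 16.7) and Gabarapl1 (58.7 ± 5.69). The SDs of neighbours in this order overlapped down to Map1lc3a, while Gabarapl2 and then Gabarapl1 lay clear below. The 41 genes together made up 0.4136% of all TPM in 9mCON, 0.6242% in 9mTSCmKO and 0.5297% in 9mTSCmKO+RM, with 0.4189%, 0.5649% and 0.4414% in the matching 3-month groups. Sqstm1 carried much of this difference, since the other 40 members made up 0.343%, 0.4104% and 0.4247% in the 9-month groups and 0.355%, 0.4259% and 0.3616% in the 3-month groups. The lowest count of any member in any library was 62, and all 41 passed the filter on low counts.

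**Figure D1:**
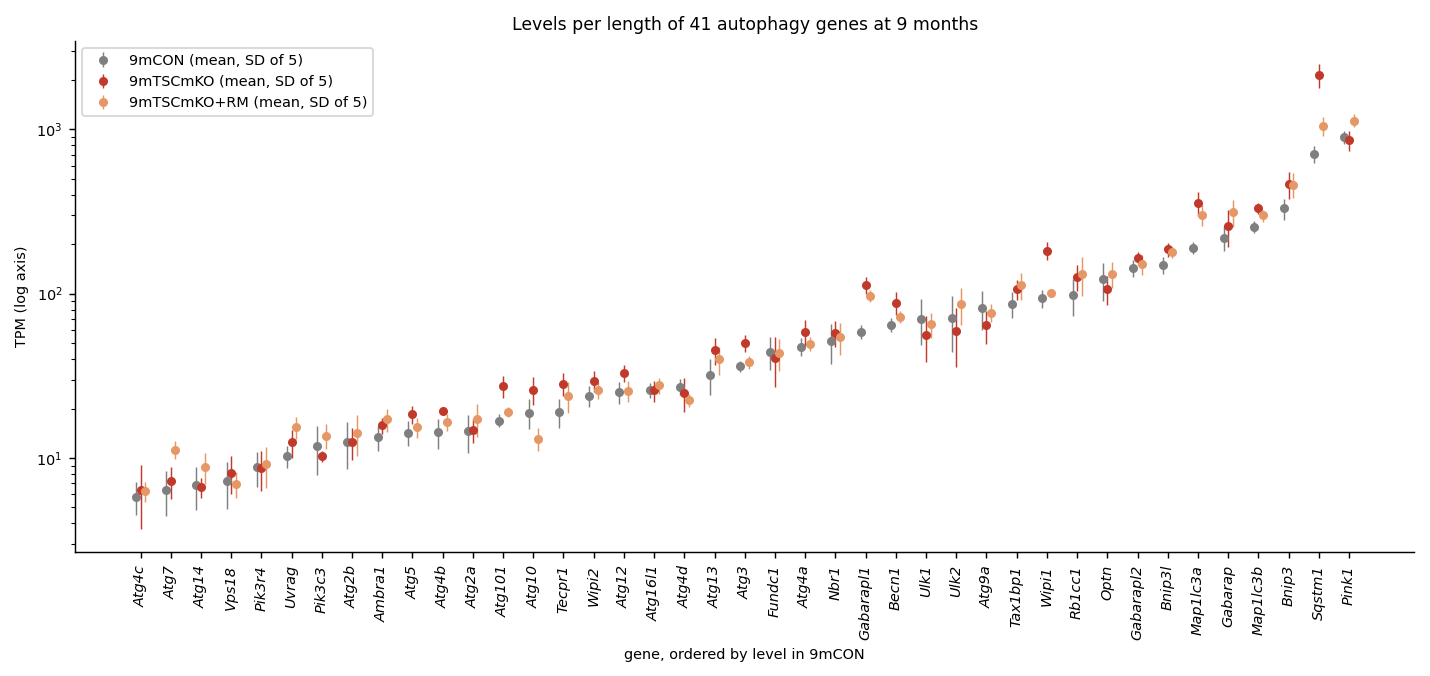
Level per length (TPM, log axis) of the 41 autophagy genes in 9mCON, 9mTSCmKO and 9mTSCmKO+RM, ordered by the level in 9mCON. Points are means and bars the SD of 5 libraries. Sqstm1 stood at 706 TPM in 9mCON and 2139 TPM in 9mTSCmKO, while Pink1 differed little (900.0 and 856 TPM).

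Loss of Tsc1 was accompanied by higher levels of a minority of the members. In 9mTSCmKO against 9mCON, 13 members were higher and 1 was lower at an adjusted p below 0.05, where 19.1% of all 13543 genes tested were higher and 18.9% were lower. In 3mTSCmKO against 3mCON, 11 were higher and 1 was lower, against 11.4% and 8.32% of all genes. The median log2 fold change of the members was 0.19 at 9 months and 0.18 at 3 months, compared with -0.022 and -0.024 for all genes. The share of members called in either direction, 34.1% and 29.3%, stood beside 37.9% and 19.8% of all genes. The 2 ages shared no libraries, and 10 genes were higher at both: Sqstm1, Gabarapl1, Map1lc3a, Wipi1, Bnip3, Tecpr1, Becn1, Atg13, Atg4b and Atg12. These were 76.9% of the 13 higher at 9 months and 90.9% of the 11 higher at 3 months. Of all genes tested, 1061 were higher at both ages, or 41.1% of those higher at 9 and 68.5% of those higher at 3 months. Values of the groups did not overlap for 9 members at 9 months, all higher, and for 13 higher and 1 lower at 3 months (16% and 19.6% of all genes in either direction). With upper-quartile scaling the 9-month count was 12 higher and 3 lower, and 38.2% of all genes were called, 47.3% of them higher in place of 50.3%. With only the groups compared in the fit, the 9-month calls of Atg3, Atg9a, Atg12, Bnip3 and Wipi2 were lost (9 members and 20.7% of all genes called), while at 3 months 15 members, all higher, and 29% of all genes were called, without Atg10.

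**Figure D2:**
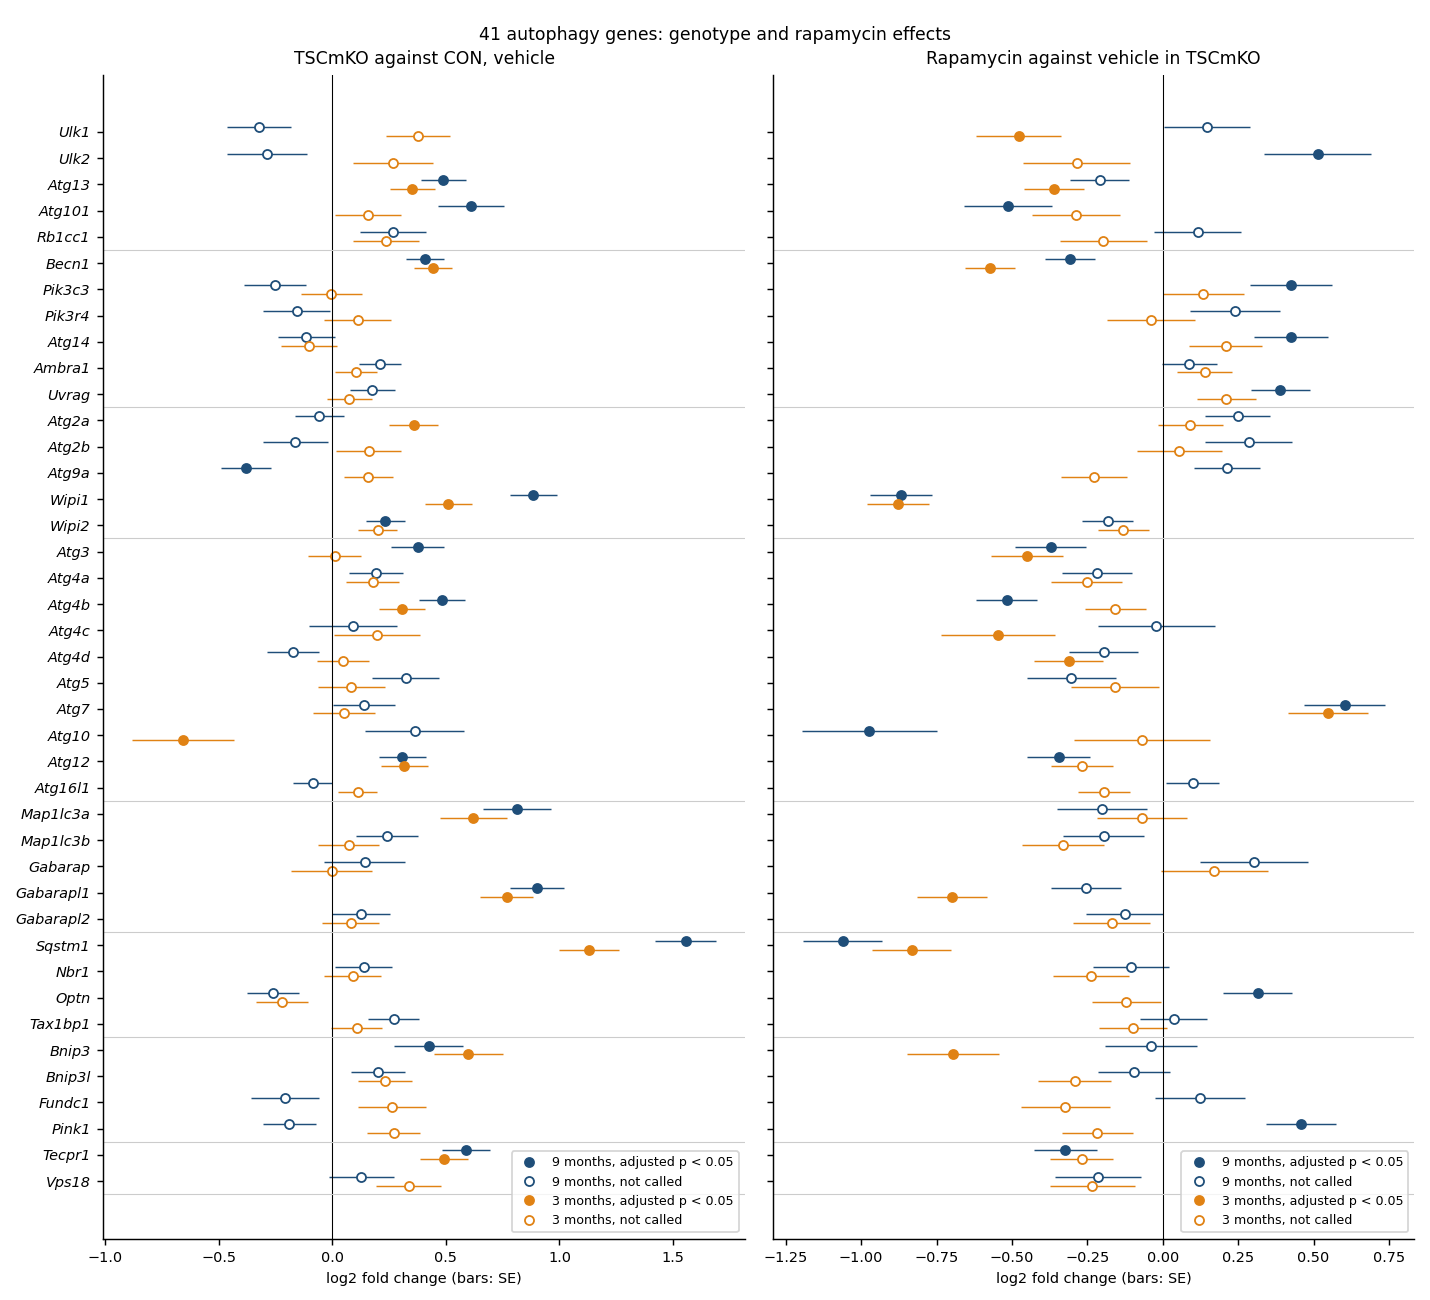
Log2 fold change of each of the 41 genes for TSCmKO against CON under vehicle (left) and for rapamycin against vehicle in TSCmKO (right), at 9 months (blue) and 3 months (orange). Bars are standard errors and filled points passed an adjusted p of 0.05. Sqstm1 reached 1.56 and 1.13 in the left panel and -1.06 and -0.83 in the right panel.

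Rapamycin in TSCmKO muscle moved members both ways at 9 months and mostly downward at 3 months. In 9mTSCmKO+RM against 9mTSCmKO, 9 members fell and 7 rose (39% of the members), where 16.8% of all genes fell and 15.8% rose (32.6% in all), and the median of the members was -0.095 beside -0.045 for all genes. In 3mTSCmKO+RM against 3mTSCmKO, 10 fell and 1 rose, against 13% and 10.6% of all genes (23.6% in all), and the median was -0.23 beside 0.0099. With upper-quartile scaling the 3-month count was 8 lower and 2 higher, the median of all genes was 0.063, and 55.7% of all called genes were higher in place of 44.9%. Groups did not overlap for 5 members that were lower and 5 that were higher at 9 months, and for 11 lower at 3 months (15.1% and 21.1% of all genes). Sqstm1, Wipi1, Becn1 and Atg3 fell at both ages, and Atg7 rose at both. These 4 were 44.4% of the 9 and 40% of the 10 that fell, where the genes that fell at both ages were 42.8% and 55.3% of all that fell. The comparisons with and without rapamycin use the same vehicle-treated TSCmKO libraries as the genotype comparisons, so that their values are given side by side and not correlated. The 9-month calls of Becn1, Atg12, Tecpr1, Optn and Ulk2 were lost with only the groups compared in the fit (11 members and 20% of all genes called), and at 3 months that fit called 16 members, 15 of them lower, and 33.4% of all genes.

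In control muscle rapamycin changed few members. At 9 months Optn and Uvrag rose and Wipi1 fell, 3 of 41 members where 11.8% of all genes were called (5.03% higher and 6.82% lower), and all 3 calls were lost with only the groups compared in the fit (4.48% of all genes called). At 3 months Wipi1 fell as the only member past the threshold, where 0.679% of all genes were called (0.362% higher and 0.318% lower). With only the groups compared 3 members (1 higher and 2 lower) and 3.32% of all genes were called there, and leaving out 1 library gave 35 to 70 genes in place of 92 (35 without 3mCON+RM replicate 4). The medians of the members were 0.074 and -0.010, compared with -0.015 and -0.0043 for all genes. Groups did not overlap for 1 member at 9 months (higher; 6.64% of all genes) and for 5 higher and 2 lower members at 3 months (5.41%). Whether the rapamycin response differed between genotypes was tested as an interaction. It was more negative in TSCmKO for Sqstm1, Atg101, Atg4b and Wipi1 at 9 months (4 members, where 4.87% of all genes were called, 2.56% higher and 2.31% lower). The same held for Sqstm1 and Becn1 at 3 months (2 members, where 3.45% of all genes were called, 1.36% higher and 2.09% lower). The Atg101 call was lost in 9 of 20 fits that each left out 1 library (largest adjusted p = 0.0955, without 9mCON+RM replicate 1, with a difference of -0.55). It was also lost with upper-quartile scaling, without a filter on low counts and with insert size as a term. With only the groups compared 1 member, Sqstm1, remained at 9 months (1.59% of all genes called) and 8 members, all lower, were called at 3 months (9.18% of all genes).

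In the ULK1 complex, which starts autophagosome formation, Atg13 rose with loss of Tsc1 at both ages. Atg13, the regulatory subunit that mTORC1 phosphorylates together with Ulk1, was at 61.7 ± 6.71 CPM in 9mTSCmKO and 44.0 ± 7.09 CPM in 9mCON (log2 fold change 0.49 ± 0.099, adjusted p = 0.000156). At 3 months the difference was 0.35 ± 0.099 (adjusted p = 0.00877), and rapamycin lowered Atg13 by 0.36 on the log2 scale in 3mTSCmKO (adjusted p = 0.00594). Atg101, which stabilises Atg13, rose at 9 months (log2 fold change 0.61 ± 0.15, adjusted p = 0.000950), fell with rapamycin in 9mTSCmKO (log2 fold change -0.51 ± 0.14, adjusted p = 0.00592) and was not called at 3 months. The scaffold Rb1cc1 passed neither genotype test.

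Ulk1, the kinase of the complex, gave calls that varied with the fit. It was measured at 134, 125, 142, 143 and 131 CPM in 3mCON and at 190.4, 195, 160.1, 134 and 199 CPM in 3mTSCmKO. At 9 months the values were 89.8, 102, 140.1, 144 and 148 CPM in CON and 68.1, 122, 82.6, 111 and 115 CPM in TSCmKO. Groups overlapped at both ages, with 4 of the 5 libraries of 3mTSCmKO above every 3mCON library. Neither genotype difference passed the test, with 0.38 ± 0.14 (adjusted p = 0.0537) in 3-month and -0.32 ± 0.14 (adjusted p = 0.0662) in 9-month muscle, whereas the difference between them did (difference in log2 fold change -0.70 ± 0.20, adjusted p = 0.0322). The 3-month difference passed with DESeq2, with only the groups compared, and without 3mTSCmKO replicate 4 (0.48, adjusted p = 0.0154), and the 9-month difference with upper-quartile scaling and without 9mCON replicate 1 or 2 or 9mTSCmKO replicate 2 or 5 (-0.41 to -0.38). Other fits weakened them. The 3-month difference was 0.33 without 3mTSCmKO replicate 5 (adjusted p = 0.133). The 9-month difference was -0.23 without 9mCON replicate 5 (adjusted p = 0.230). The interaction was lost in 10 of 20 fits that each left out 1 library, the weakest being without 9mCON replicate 5 (-0.63, adjusted p = 0.0745), with insert size as a term (-0.65, adjusted p = 0.0532) and with only the groups compared (-0.68, adjusted p = 0.129). Within TSCmKO, Ulk1 was lower at 9 than at 3 months (log2 fold change -0.82 ± 0.14, adjusted p = 3.04e-05) and so was Ulk2 (log2 fold change -0.85 ± 0.18, adjusted p = 0.000316). The Ulk2 call did not hold with insert size as a term. Rapamycin lowered Ulk1 in 3mTSCmKO to 140.4, 138, 109, 116 and 127 CPM, with overlap through 3mTSCmKO replicate 4 (log2 fold change -0.48 ± 0.14, adjusted p = 0.0110). In 9mTSCmKO it raised Ulk2 (log2 fold change 0.51 ± 0.18, adjusted p = 0.0243), a call lost without 9mTSCmKO replicate 1 or 3 or 9mTSCmKO+RM replicate 2 or 4 (largest adjusted p = 0.115, without 9mTSCmKO replicate 1, with a difference of 0.37).

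In the class III PI3-kinase complex, which makes the lipid PI3P on the growing membrane, Becn1 moved apart from its partners. Becn1, the scaffold subunit, was at 83.4, 92.9, 89.5, 89.7 and 75.6 CPM in 9mCON and 128, 115, 97.9, 120.2 and 110.3 CPM in 9mTSCmKO. In 9mTSCmKO+RM it was at 95.9, 96.8, 83.8, 96.4 and 89.0 CPM. Every library of 9mTSCmKO lay above every library of the other 2 groups (log2 fold change 0.41 ± 0.083, adjusted p = 0.000162 against 9mCON, log2 fold change -0.31 ± 0.083, adjusted p = 0.00418 for rapamycin). At 3 months Becn1 was at 78.2, 85.1, 73.4, 84.9 and 74.3 CPM in 3mCON, 118, 103, 107, 103 and 108 CPM in 3mTSCmKO and 77.3, 68.1, 74.7, 69.8 and 71.5 CPM in 3mTSCmKO+RM. All 5 libraries of 3mTSCmKO were again above the other groups (log2 fold change 0.44 ± 0.083, adjusted p = 0.000108 against 3mCON, log2 fold change -0.57 ± 0.083, adjusted p = 1.76e-06 for rapamycin). In CON the response to rapamycin was -0.13 ± 0.083 at 3 months (adjusted p = 0.726), and it was more negative in TSCmKO than in CON (difference in log2 fold change -0.44 ± 0.12, adjusted p = 0.0246), a call that was lost without a filter on low counts (-0.45, adjusted p = 0.0792). At 9 months this difference was -0.37 ± 0.12 and missed the threshold (adjusted p = 0.0557).

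The catalytic subunit Pik3c3 and the subunits Pik3r4, Atg14, Ambra1 and Uvrag passed neither genotype test. In 9mTSCmKO rapamycin raised Pik3c3 (log2 fold change 0.43 ± 0.14, adjusted p = 0.0146), Atg14, which directs the complex to autophagosomes (log2 fold change 0.43 ± 0.12, adjusted p = 0.00719), and Uvrag, which takes its place in endosome traffic (log2 fold change 0.39 ± 0.099, adjusted p = 0.00240). Uvrag was at 28.1 ± 1.63 CPM in 9mTSCmKO+RM and 21.5 ± 3.02 CPM in 9mTSCmKO. The same gene rose in 9mCON, from 19.0 ± 2.11 to 24.7 ± 1.64 CPM (log2 fold change 0.38 ± 0.10, adjusted p = 0.00998), and the groups did not overlap in either genotype. None of these 3 genes was called for rapamycin in 3mTSCmKO.

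Among the genes of lipid transfer and PI3P binding, Wipi1 was called in 9 of the 13 contrasts, more than any other member. Wipi1 binds PI3P on the growing membrane. It was at 98.0, 143, 103, 109 and 122 CPM in 9mCON, 188, 215, 267, 199 and 191 CPM in 9mTSCmKO and 127, 112, 111, 111 and 121 CPM in 9mTSCmKO+RM. The lowest library of 9mTSCmKO lay above the highest of both other groups, with replicate 3 the highest. Fold changes were 1.85 for genotype (log2 fold change 0.88 ± 0.10, adjusted p = 6.46e-09) and 1.82 downward for rapamycin (log2 fold change -0.87 ± 0.10, adjusted p = 3.21e-08), and without 9mTSCmKO replicate 3 the log2 values were 0.79 and -0.77. At 3 months Wipi1 was at 114, 117, 139, 121 and 106 CPM in 3mCON, 173, 160.3, 174, 178 and 166 CPM in 3mTSCmKO and 90.6, 85.5, 97.2, 99.0 and 91.1 CPM in 3mTSCmKO+RM, again without overlap (log2 fold change 0.51 ± 0.10, adjusted p = 0.000244 and log2 fold change -0.88 ± 0.10, adjusted p = 2.85e-08).

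Rapamycin lowered Wipi1 in control muscle too. It was at 83.9, 90.4, 81.0, 77.9 and 78.8 CPM in 3mCON+RM, below every 3mCON library (log2 fold change -0.54 ± 0.10, adjusted p = 0.00566). In 9mCON+RM it was at 108, 77.5, 88.4, 83.1 and 99.3 CPM, overlapping with 9mCON (log2 fold change -0.33 ± 0.10, adjusted p = 0.0266), and this call was lost without 9mCON replicate 2 or 5 or 9mCON+RM replicate 2 or 4 (largest adjusted p = 0.115, without 9mCON replicate 2, with a difference of -0.24). The fall was larger in TSCmKO than in CON at 9 months (difference in log2 fold change -0.53 ± 0.14, adjusted p = 0.0237; -0.44 and adjusted p = 0.0529 without 9mTSCmKO replicate 3), and at 3 months the difference of -0.34 ± 0.14 was not called (adjusted p = 0.229). Rapamycin-treated 9mTSCmKO muscle did not differ detectably from 9mCON (0.018 ± 0.10, adjusted p = 0.918), and treated 3mTSCmKO lay below 3mCON (log2 fold change -0.37 ± 0.10, adjusted p = 0.00918), a call lost without 3mCON replicate 3 (-0.29, adjusted p = 0.0581).

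The relative Wipi2 rose at 9 months by 0.23 ± 0.086 (adjusted p = 0.0299), a call lost without 9mTSCmKO replicate 1 (0.14, adjusted p = 0.185) or 9mCON replicate 4 (0.19, adjusted p = 0.102). Atg9a, which spreads lipids between the leaflets of the membrane, was the only member called lower in 9mTSCmKO than in 9mCON (108 ± 14.4 against 140.3 ± 21.5 CPM; log2 fold change -0.38 ± 0.11, adjusted p = 0.00567), and it was lower at 9 than at 3 months within TSCmKO (log2 fold change -0.67 ± 0.11, adjusted p = 1.51e-05). The lipid transfer gene Atg2a was higher in 3mTSCmKO than in 3mCON (log2 fold change 0.36 ± 0.11, adjusted p = 0.0146) and lower at 9 than at 3 months within TSCmKO (log2 fold change -0.49 ± 0.11, adjusted p = 0.000535). Its paralog Atg2b passed neither genotype test.

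The 10 genes of the conjugation system, which attaches LC3 and GABARAP proteins to lipid, split in direction. Atg7, the enzyme that activates both LC3 and Atg12, was at 7.91, 6.34, 10.9, 9.50 and 11.3 CPM in 9mCON, 9.83, 11.1, 11.9, 8.83 and 9.01 CPM in 9mTSCmKO and 16.2, 14.5, 16.4, 15.2 and 14.7 CPM in 9mTSCmKO+RM. The vehicle groups overlapped widely, and the treated group lay above both. Genotype made no called difference (0.14 ± 0.14, adjusted p = 0.445), while rapamycin raised Atg7 (log2 fold change 0.60 ± 0.13, adjusted p = 0.000658). At 3 months Atg7 was at 11.004, 11.1, 7.61, 8.32 and 9.57 CPM in 3mTSCmKO and 12.1, 13.7, 10.8, 17.7 and 15.003 CPM in 3mTSCmKO+RM, where replicate 3 of the treated group fell within the range of the vehicle group (log2 fold change 0.55 ± 0.13, adjusted p = 0.00216). In CON the response to rapamycin was 0.37 ± 0.14 at 9 months and 0.35 ± 0.14 at 3 months, not called (adjusted p = 0.0750 and 0.321), although the 9-month difference passed without 9mCON replicate 5 (0.45, adjusted p = 0.0361), and the difference between genotypes was not called either (adjusted p = 0.517 and 0.729).

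Atg10, the enzyme that passes Atg12 to Atg5, was at 13.5, 15.7, 15.2, 14.2 and 13.6 CPM in 3mCON and 8.50, 4.18, 8.22, 15.9 and 8.38 CPM in 3mTSCmKO. Of the 3mTSCmKO libraries 4 were below all of 3mCON, and replicate 4 was above them all. The genotype difference was -0.66 ± 0.22 (adjusted p = 0.0324), and it was lost in 7 of 10 fits that each left out 1 library (3mCON replicate 2, 3 or 4 or 3mTSCmKO replicate 1, 2, 3 or 5; largest adjusted p = 0.132, without 3mTSCmKO replicate 2). Without replicate 4 it was -0.96 (adjusted p = 0.00116). At 9 months Atg10 was at 14.3, 27.0, 15.2, 17.6 and 12.1 CPM in 9mCON, 19.4, 18.9, 30.6, 24.2 and 17.5 CPM in 9mTSCmKO and 14.8, 11.8, 7.45, 11.9 and 10.6 CPM in 9mTSCmKO+RM. All treated libraries were below all 9mTSCmKO libraries (log2 fold change -0.97 ± 0.22, adjusted p = 0.000879). The 9-month genotype difference of 0.36 ± 0.22 was not called (adjusted p = 0.194), but it passed without 9mCON replicate 2, the highest control library (0.58, adjusted p = 0.0344). Without 9mTSCmKO replicate 3 the difference was 0.22 (adjusted p = 0.479). Within TSCmKO, Atg10 was 2.41-fold higher at 9 than at 3 months without overlap (log2 fold change 1.27 ± 0.22, adjusted p = 3.60e-05).

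The protease Atg4b rose with loss of Tsc1 at 9 months (27.1 ± 5.43 against 19.4 ± 1.44 CPM; log2 fold change 0.48 ± 0.10, adjusted p = 0.000223) and fell with rapamycin in 9mTSCmKO to 18.9 ± 1.71 CPM (log2 fold change -0.52 ± 0.10, adjusted p = 0.000135). In 9mCON+RM it was at 21.5 ± 1.63 CPM, and the response differed between genotypes (difference in log2 fold change -0.67 ± 0.14, adjusted p = 0.00475). At 3 months its rise of 0.31 ± 0.10 (adjusted p = 0.0275) was lost without 3mCON replicate 1 or 4 or 3mTSCmKO replicate 2, with adjusted p of 0.0787, 0.0615 and 0.0736. Atg3, which transfers LC3 to lipid, was higher at 9 months (log2 fold change 0.37 ± 0.12, adjusted p = 0.0115) and lower with rapamycin at both ages (-0.37 ± 0.12 and -0.45 ± 0.12, adjusted p = 0.0144 and 0.00449).

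Atg12, the ubiquitin-like partner of Atg5, was higher in TSCmKO at both ages. The difference was 0.31 ± 0.10 in 9-month muscle (adjusted p = 0.0179) and 0.32 ± 0.10 in 3-month muscle (adjusted p = 0.0265). The 9-month call was lost without 9mCON replicate 5 (0.26, adjusted p = 0.0527) or 9mTSCmKO replicate 4 (0.26, adjusted p = 0.0568), and the 3-month call without 3mCON replicate 3 (0.30, adjusted p = 0.0518) or 3mTSCmKO replicate 3 (0.29, adjusted p = 0.0687) or 5 (0.28, adjusted p = 0.0719). Rapamycin lowered Atg12 in 9mTSCmKO (log2 fold change -0.35 ± 0.10, adjusted p = 0.00971). Rapamycin in 3mTSCmKO lowered the proteases Atg4c (by 0.55 on the log2 scale) and Atg4d (by 0.31), neither robustly. The Atg4c call was lost without 3mTSCmKO replicate 1 or 4 or 3mTSCmKO+RM replicate 1, 4 or 5 (largest adjusted p = 0.0942, without 3mTSCmKO+RM replicate 4), and the Atg4d call without 3mTSCmKO replicate 4 or 5 or 3mTSCmKO+RM replicate 2 or 3 (largest adjusted p = 0.175, without 3mTSCmKO replicate 4). Atg4a, Atg5 and Atg16l1 passed none of these 4 tests.

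Of the LC3 and GABARAP genes, whose products coat the autophagosome, Map1lc3a and Gabarapl1 rose with loss of Tsc1 and the other 3 passed neither genotype test. Gabarapl1 was at 44.2, 54.8, 45.1, 51.3 and 38.8 CPM in 9mCON and 92.7, 67.3, 96.7, 97.2 and 83.1 CPM in 9mTSCmKO, with no overlap (log2 fold change 0.90 ± 0.12, adjusted p = 8.92e-08). At 3 months it was at 44.6, 39.6, 59.4, 43.0 and 48.2 CPM in 3mCON and 85.8, 75.6, 70.0, 91.2 and 77.2 CPM in 3mTSCmKO, again without overlap (log2 fold change 0.77 ± 0.12, adjusted p = 4.29e-06). With rapamycin it was at 46.9, 49.4, 59.4, 46.4 and 44.5 CPM in 3mTSCmKO+RM, overlapping with 3mCON and below every 3mTSCmKO library (log2 fold change -0.70 ± 0.12, adjusted p = 1.91e-05). In 9mTSCmKO+RM it was at 77.8, 73.5, 66.6, 76.6 and 72.3 CPM, above every 9mCON library (log2 fold change 0.65 ± 0.12, adjusted p = 4.19e-05), and its fall of 0.25 ± 0.12 missed the threshold (adjusted p = 0.0908). Without 9mTSCmKO replicate 2, its lowest library, the fall was called (-0.36, adjusted p = 0.0172).

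Map1lc3a was at 89.4, 128, 97.7, 99.8 and 78.6 CPM in 9mCON, 142, 137, 223, 186 and 179 CPM in 9mTSCmKO and 198, 150.3, 107, 163 and 137 CPM in 9mTSCmKO+RM. The vehicle groups did not overlap (log2 fold change 0.81 ± 0.15, adjusted p = 3.51e-05), and the treated group overlapped with 9mTSCmKO (-0.20 ± 0.15, adjusted p = 0.308). At 3 months it was at 73.5, 79.9, 73.5, 71.5 and 73.6 CPM in 3mCON and 106, 116, 105, 104 and 141 CPM in 3mTSCmKO, without overlap (log2 fold change 0.62 ± 0.15, adjusted p = 0.00207). Rapamycin left it at 117, 106, 91.0, 121 and 111 CPM in 3mTSCmKO+RM, still above every 3mCON library (log2 fold change 0.55 ± 0.15, adjusted p = 0.00710). Map1lc3b, the LC3 gene most often used as a marker, was at 320.2, 435, 323, 293 and 267 CPM in 9mCON and 489, 311, 451, 341 and 343 CPM in 9mTSCmKO, with wide overlap (0.24 ± 0.14, adjusted p = 0.159), although the difference was called without 9mCON replicate 2 (0.36, adjusted p = 0.031). Without 9mTSCmKO replicate 1 the difference was 0.14 (adjusted p = 0.440). Map1lc3b was called in none of the 13 contrasts as fitted here, although its difference with rapamycin in 3mTSCmKO (-0.33 ± 0.14, adjusted p = 0.0731), where the groups did not overlap, was called with only the groups compared (adjusted p = 0.0134) and with insert size as a term (adjusted p = 0.0496).

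Sqstm1 carried the largest genotype effect of all members at both ages. Its product p62 links ubiquitin-tagged cargo to LC3. In 9mCON it was at 626, 641, 538, 609 and 645 CPM and in 9mTSCmKO at 1601, 1626, 2518, 1586 and 1661 CPM. Every 9mTSCmKO library was far above the highest control library, and replicate 3 stood well above the other 4. The 2.94-fold difference (log2 fold change 1.56 ± 0.13, adjusted p = 4.87e-12) was 1.40 on the log2 scale without that library. With rapamycin Sqstm1 was at 808, 832, 909, 916 and 847 CPM, between both vehicle groups and overlapping with neither. It was 2.09-fold lower than in 9mTSCmKO (log2 fold change -1.06 ± 0.13, adjusted p = 8.31e-08; -0.91 without replicate 3) and 1.41-fold higher than in 9mCON (log2 fold change 0.50 ± 0.13, adjusted p = 0.00313).

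At 3 months Sqstm1 was at 437, 431, 462, 503 and 581 CPM in 3mCON, 1204, 1409.8, 925, 872 and 870.1 CPM in 3mTSCmKO and 452, 528, 596, 704 and 686 CPM in 3mTSCmKO+RM. The vehicle groups did not overlap (log2 fold change 1.13 ± 0.13, adjusted p = 2.30e-08), nor did the treated and vehicle groups of TSCmKO (log2 fold change -0.83 ± 0.13, adjusted p = 7.09e-06), while treated TSCmKO and 3mCON overlapped (0.30 ± 0.13, adjusted p = 0.118). Control muscle with rapamycin was at 449, 522, 446, 445 and 472 CPM at 3 months and 646, 633, 640.1, 645 and 599.7 CPM at 9 months, within or near the range of its vehicle group (-0.049 ± 0.13 and 0.049 ± 0.13, adjusted p = 0.983 and 0.864). The response to rapamycin differed between genotypes at both ages (difference in log2 fold change -1.11 ± 0.18, adjusted p = 0.000347 at 9 months and difference in log2 fold change -0.78 ± 0.18, adjusted p = 0.0102 at 3 months). Within TSCmKO, Sqstm1 was higher at 9 than at 3 months (log2 fold change 0.77 ± 0.13, adjusted p = 2.35e-05), whereas the difference between the genotype effects of 0.43 ± 0.18 was not called (adjusted p = 0.184).

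**Figure D3:**
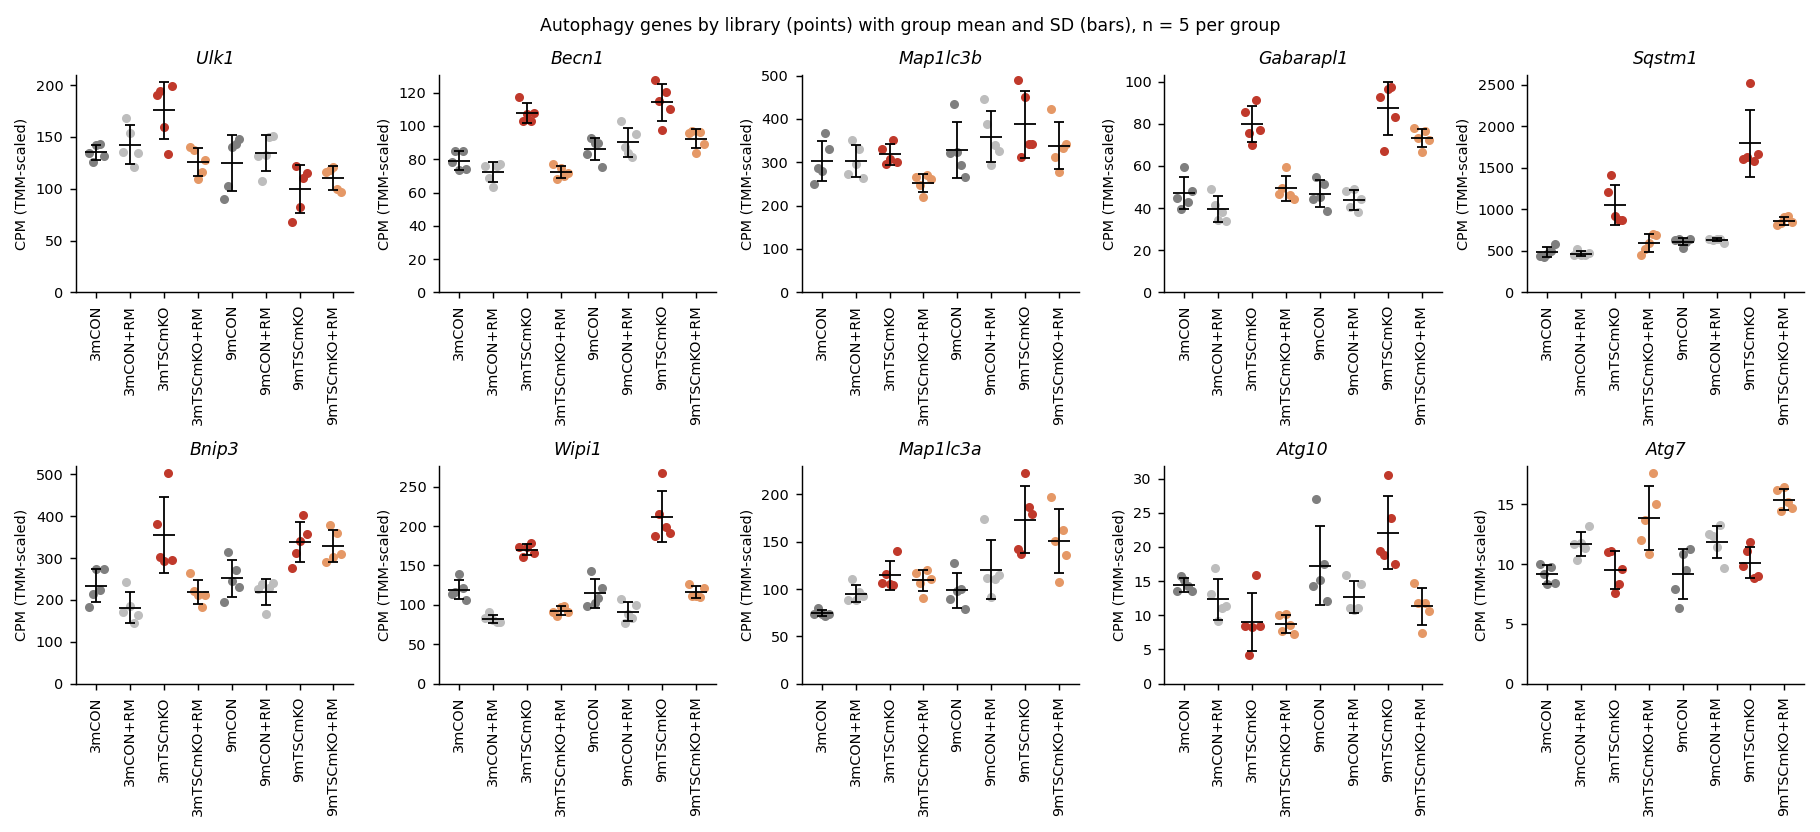
Level in CPM (axis from 0) of 10 autophagy genes in each of the 40 libraries, by group. Points are libraries and bars the mean and SD of 5. Sqstm1, Gabarapl1, Wipi1 and Becn1 in vehicle-treated TSCmKO lay above vehicle-treated CON at both ages without overlap, and Atg10 in 3mTSCmKO lay below 3mCON except for replicate 4 at 15.9 CPM.

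The other cargo receptors Nbr1, Tax1bp1 and Optn passed neither genotype test, with log2 differences of 0.14, 0.27 and -0.26 at 9 months and 0.089, 0.11 and -0.22 at 3 months. Every 9mTSCmKO library of Tax1bp1 (154 to 178 CPM) nevertheless lay above every 9mCON library (125 to 154 CPM), by little at the nearest pair (153.99 and 153.66 CPM; adjusted p = 0.0544). At 3 months every 3mTSCmKO library of Optn lay below every 3mCON library, also without a call. Optn, which binds ubiquitin on mitochondria and bacteria, was at 148 ± 30.7 CPM in 9mCON and 219.8 ± 22.9 CPM in 9mCON+RM (log2 fold change 0.57 ± 0.11, adjusted p = 0.000826). In TSCmKO rapamycin moved it from 123 ± 17.2 to 153 ± 15.3 CPM (log2 fold change 0.31 ± 0.11, adjusted p = 0.0305), a call lost without 9mTSCmKO replicate 1 or 3 or 9mTSCmKO+RM replicate 2, 3 or 4 (largest adjusted p = 0.115, without 9mTSCmKO replicate 3). 

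Of the mitophagy genes, Bnip3 rose with loss of Tsc1. Bnip3 encodes a receptor on the outer mitochondrial membrane. It was at 184, 215, 274, 224 and 274 CPM in 3mCON and 382, 302, 293, 502 and 294 CPM in 3mTSCmKO, with replicate 4 the highest and no overlap (log2 fold change 0.60 ± 0.15, adjusted p = 0.00367). With rapamycin it was at 265, 221, 213, 184 and 212 CPM in 3mTSCmKO+RM, below every vehicle library and within the range of 3mCON (log2 fold change -0.70 ± 0.15, adjusted p = 0.000682). At 9 months it was at 194, 314, 246, 272 and 231 CPM in 9mCON, 276, 312, 340.4, 403 and 359 CPM in 9mTSCmKO and 291, 379.9, 303, 361 and 309 CPM in 9mTSCmKO+RM. The vehicle groups overlapped (log2 fold change 0.42 ± 0.15, adjusted p = 0.0252), and the call was lost without 9mTSCmKO replicate 4 (0.35, adjusted p = 0.0823) or 9mCON replicate 1 (0.37, adjusted p = 0.0589). Rapamycin made no called difference at 9 months (-0.039 ± 0.15, adjusted p = 0.869). Bnip3l and Fundc1, receptors of the same membrane, and Pink1 passed neither genotype test, and Pink1 rose with rapamycin in 9mTSCmKO without overlap, from 920.4 ± 111 to 1264 ± 201 CPM (log2 fold change 0.46 ± 0.12, adjusted p = 0.00261).

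Of the genes of fusion with lysosomes, Tecpr1, which tethers autophagosomes to lysosomes, rose at both ages without overlap. It was at 53.4 ± 4.62 CPM in 9mTSCmKO and 35.4 ± 3.54 CPM in 9mCON (log2 fold change 0.59 ± 0.11, adjusted p = 2.50e-05), and at 48.5 ± 7.83 CPM in 3mTSCmKO and 34.5 ± 2.54 CPM in 3mCON (log2 fold change 0.49 ± 0.11, adjusted p = 0.000601). Its fall with rapamycin in 9mTSCmKO (log2 fold change -0.32 ± 0.11, adjusted p = 0.0164) was lost without 9mTSCmKO+RM replicate 5 (-0.28, adjusted p = 0.0541). Vps18, a subunit of the tethering complex HOPS, passed none of these tests.

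Rapamycin-treated TSCmKO muscle was also set against vehicle-treated CON. At 9 months 12 members were higher and 2 lower (15.7% and 16.2% of all genes, 31.9% in all), and at 3 months 4 were higher and 4 lower (8.98% and 7.71%, 16.7% in all). Atg7 and Map1lc3a were higher at both ages, at 0.74 and 0.61 on the log2 scale at 9 months and 0.60 and 0.55 at 3 months, and these calls held whichever library was left out. Uvrag (0.57), Gabarapl1 (0.65), Sqstm1 (0.50) and Ambra1 (0.30) were higher at 9 months, also whichever library was left out, and Atg2a was higher (0.45) and Atg3 lower (-0.44) at 3 months. The calls of the other members at 9 months (Atg13, Rb1cc1, Atg14, Tax1bp1, Bnip3, Tecpr1, Atg10 and Atg4d) and at 3 months (Uvrag, Wipi1, Optn and Atg10) were each lost without at least 1 library. The 9-month count was 7 without 9mTSCmKO+RM replicate 2, where leaving out 1 library gave 3739 to 4281 of all genes in place of 4318. It was 6 with only the groups compared in the fit (24.2% of all genes), which lost the Ambra1 call (adjusted p = 0.0595), and 7 without a filter on low counts (18%). Between the same groups 4 of 6 macrophage and 4 of 6 tendon markers were lower at 9 months, and 3 of 6 macrophage markers were higher at 3 months, and their part in these values was not tested. Groups did not overlap for 5 members at 9 months and for 11 at 3 months (6 higher and 5 lower), where this held for 16.8% and 19.1% of all genes.

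With age, 8 members rose and 9 fell between 3mTSCmKO and 9mTSCmKO (19.1% and 18.3% of all genes, 37.4% in all), while 0 of 41 passed between 3mCON and 9mCON, where 1.02% of all genes passed (0.679% higher and 0.34% lower) and 0 members had groups that did not overlap (3.26% of all genes). In CON 4 members had an unadjusted p below 0.05, DESeq2 called 0, and 1 passed without 9mCON replicate 5. The count of all genes, 138, was 942 without that library, 30 without 9mCON replicate 2 and 375 with DESeq2. The rises in TSCmKO included Atg10, Sqstm1, Map1lc3a (0.60 ± 0.15) and Atg101 (0.57 ± 0.14), and the falls Ulk2, Ulk1, Atg9a and Atg2b (-0.55 ± 0.14). Between the same groups 4 of 4 adipocyte, 4 of 5 erythroid, 4 of 6 tendon, 3 of 5 endothelial and 2 of 6 muscle fiber markers were lower at 9 months. The summed tendon markers were at 15.2 to 47.1 CPM at 9 and 94.3 to 308 CPM at 3 months, the adipocyte markers at 1.62 to 6.81 and 7.59 to 47.2 CPM, and the part of these shifts in the age values was not tested. Groups did not overlap for 4 higher and 5 lower members, where this held for 18.6% of all genes. With only the groups compared in the fit, 5 members rose and 5 fell with age in TSCmKO (26% of all genes called). With insert size as a term, which differs between the ages, 8 members remained past the threshold, 4 in each direction, where the share of all genes called fell from 37.4% to 12.6%, and Ulk2 and Atg2b were not among them. The genotype effect itself differed between ages for 3 members, Ulk1 and Atg9a (lower) and Atg10 (higher), where 4.94% of all genes were called (3.01% higher and 1.93% lower), and for none with insert size as a term. The Ulk1, Atg9a and Atg10 calls were lost in 10, 10 and 16 of 20 fits that each left out 1 library. The Atg10 call was also lost with the replicate block (1.04, adjusted p = 0.0518).

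**Figure D4:**
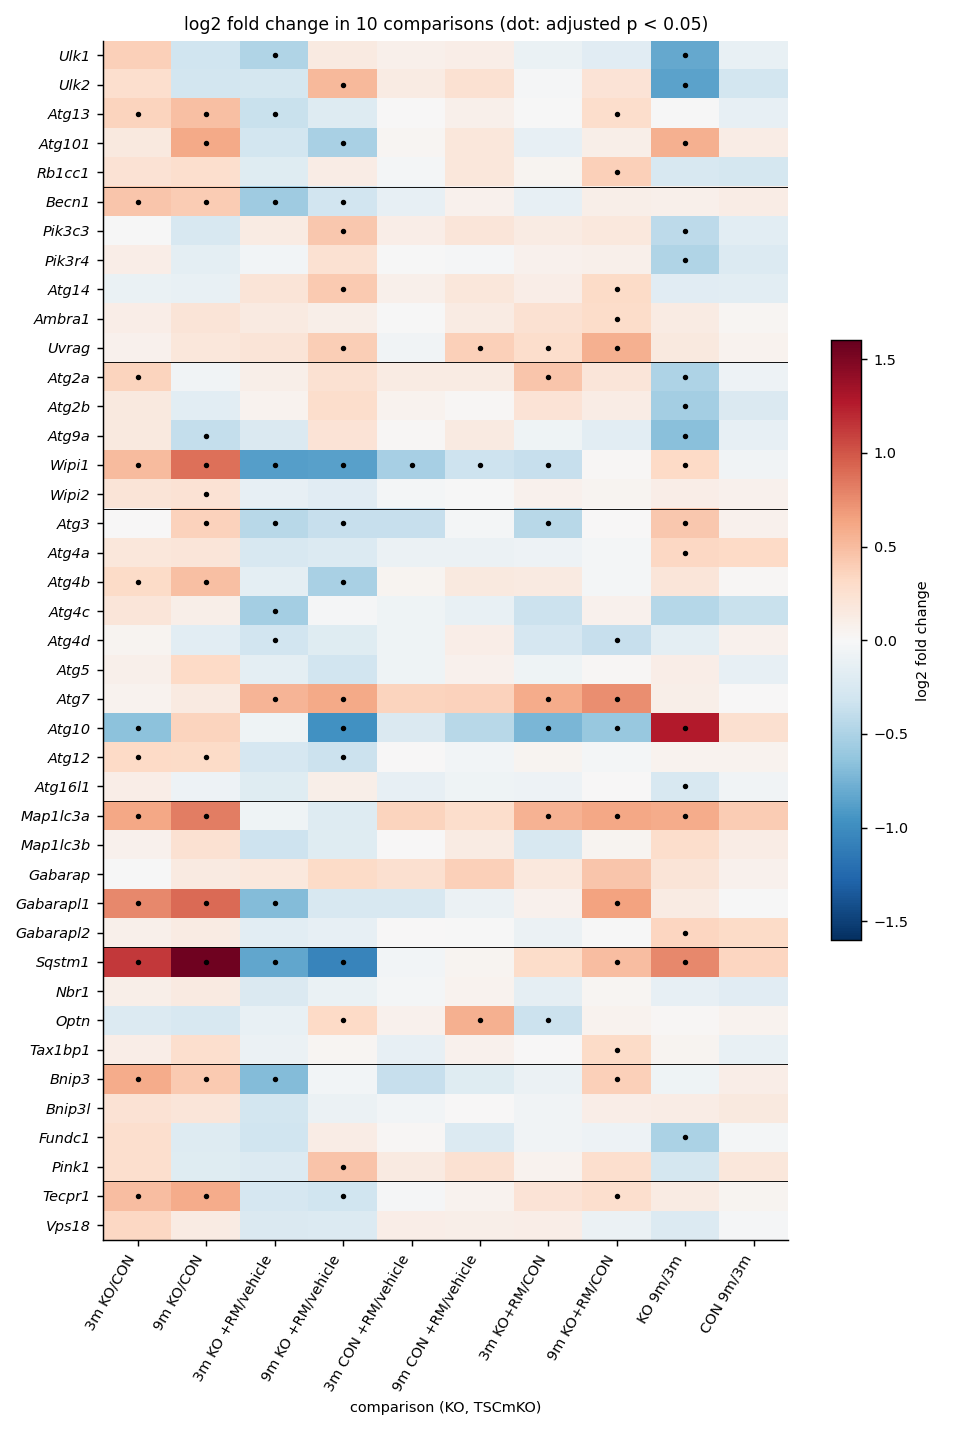
Log2 fold change (color) of the 41 autophagy genes, ordered by role, in 10 comparisons between pairs of groups (KO stands for TSCmKO). Dots mark an adjusted p below 0.05. Columns that share a group are not independent. Sqstm1 rose by 1.13 and 1.56 with loss of Tsc1 at 3 and 9 months, and the column for age in CON has 0 dots.

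Of 40 further autophagy genes that are not members, 37 were in the table and 36 were tested. In 9mTSCmKO against 9mCON 8 were higher and 4 lower, and in 3mTSCmKO against 3mCON 7 were higher and 2 lower, or 33.3% and 25% of the list beside 37.9% and 19.8% of all genes. The medians were -0.0028 and 0.051, compared with -0.022 and -0.024 for all genes. Rapamycin raised 5 and lowered 3 in 9mTSCmKO, and raised 1 and lowered 8 in 3mTSCmKO, or 22.2% and 25% beside 32.6% and 23.6% of all genes (medians 0.038 and -0.039, compared with -0.045 and 0.0099). Those called for genotype at both ages are named here after their values were seen. Bcl2, which binds beclin 1 and blocks cell death, was at 5.85, 4.91, 6.25, 8.13 and 8.78 CPM in 9mCON and 54.8, 51.5, 29.3, 61.2 and 54.9 CPM in 9mTSCmKO (log2 fold change 2.88 ± 0.25, adjusted p = 1.05e-11), and at 4.65, 5.82, 8.84, 5.77 and 4.90 CPM in 3mCON and 48.8, 43.2, 36.7, 52.8 and 24.1 CPM in 3mTSCmKO (log2 fold change 2.76 ± 0.25, adjusted p = 9.11e-11). Neither pair of groups overlapped. Nrbf2, a subunit of the Atg14-containing kinase complex, rose by 0.68 at 9 and 0.67 at 3 months on the log2 scale. Plekhm1, an adaptor for fusion with lysosomes, rose by 0.76 and 0.84. Prkaa1, a catalytic subunit of the energy sensor AMPK, rose by 0.99 and 0.40, and the mitochondrial protein gene Fkbp8 by 0.30 and 0.49. Vmp1, a membrane protein of the endoplasmic reticulum needed for autophagosome formation, fell by 0.51 and 0.35. Rapamycin lowered Bcl2 and Nrbf2 in TSCmKO at both ages, Bcl2 by 0.86 at 9 and 1.64 at 3 months and Nrbf2 by 0.62 and 0.75. Phb2, a mitophagy receptor of the inner membrane, rose with rapamycin in TSCmKO by 0.51 at 9 and 0.49 at 3 months. Its mean went from 85.1 to 122 CPM and from 70.2 to 98.5 CPM. In CON the mean of Phb2 went from 101 to 133 CPM with rapamycin at 9 months and from 87.6 to 104 CPM at 3 months.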

How the data were processed

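mRNA was sequenced from 40 EDL muscles, 1 library per mouse. The authors trimmed reads with cutadapt 1.9.1, pseudoaligned them to GRCm38 transcripts with kallisto 0.43.1, counted them with an equal split of ambiguous reads among their transcripts and summed values per gene. The deposited tables hold estimated counts, all whole numbers, and TPM that the authors derived from them. The transcripts of the 41 members share at most 4.47% of their 31-mers with other genes. Members and gene lists were chosen with earlier results of these data known.

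Counts were tested with edgeR 4.0.16 in R 4.3.3: 13543 genes at 1 CPM or more in at least 5 libraries (holding no less than 99.8% of any library's counts), TMM scaling, 8 group means fitted to all libraries, robust quasi-likelihood F-tests, two-sided, Benjamini-Hochberg adjustment over all genes tested and a threshold of 0.05, for 10 pairwise contrasts and 3 interactions. Standard errors were derived from the F statistics. The script was tested on simulated counts. P-values weigh each difference against a spread between mice within groups, estimated for each gene over all 8 groups together. This spread was not equal between groups. Over all genes tested the median coefficient of variation was 12.8% in 3mCON and 21.8% in 9mCON. The p-values of the main fit are thus not based on the spread of the 2 groups compared alone. Levels are TMM-scaled CPM, and TPM where genes are compared. Replicates of a group correlated at r = 0.934 to 0.992 across genes. Per-library values are given for Ulk1, Becn1, Map1lc3b, Gabarapl1, Sqstm1 and Bnip3 and for the 4 called members with the largest change, no overlap and a mean of at least 5 CPM in each of the genotype comparisons under vehicle and the rapamycin comparisons in TSCmKO. The numbers of replicates did not pair the samples: same-numbered libraries correlated at -0.363 to 0.289 in their deviations from the group means. Alternatives were DESeq2 1.42.0, other scalings, no filter, only the groups compared, insert size as a term, a replicate block and leaving out each library. Gene positions are those of GENCODE M21 (GRCm38).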

Additional observations from a re-analysis of the deposited data

Results flagged for a closer look

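Of 80 groups of 5 libraries tested among the members shown library by library, 5 had a library far from the others by Dixon's test at the 95% level, which chance gives in about 1 of 20 groups. Sqstm1 was at 2518 CPM in 9mTSCmKO replicate 3 and 1586 to 1661 CPM in the other 4 libraries, and at 599.7 CPM in 9mCON+RM replicate 5 and 633 to 646 CPM in the others. Map1lc3a was at 79.9 CPM in 3mCON replicate 2 (71.5 to 73.6 CPM in the others) and at 174 CPM in 9mCON+RM replicate 1 (91.1 to 114 CPM). Bnip3 was at 166 CPM in 9mCON+RM replicate 3 (226 to 241 CPM).

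The tested difference between genotype effects at 9 and 3 months passed the threshold for Ulk1 (-0.70 on the log2 scale), Atg9a (-0.54) and Atg10 (1.02). The rapamycin effect was more negative in 9mTSCmKO than in 9mCON for Sqstm1 (-1.11), Atg101 (-0.69), Atg4b (-0.67) and Wipi1 (-0.53), and more negative in 3mTSCmKO than in 3mCON for Sqstm1 (-0.78) and Becn1 (-0.44). All 3 age differences and the Atg101 call were lost with insert size as a term. Atg101 was also lost with upper-quartile scaling and in 9 of 20 fits that left out 1 library. Sqstm1, Atg4b and Becn1 kept their calls in all 20 such fits, and Wipi1 in 19. Becn1, Wipi1, Atg101, Atg9a and Atg10 were lost without a filter on low counts, and with only the groups compared the calls of Ulk1, Atg9a, Atg10, Atg101, Atg4b and Wipi1 were lost.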

How the results depend on the processing

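Of 138 member results followed, 105 were called, and 71 of these kept their call whichever library was left out. Counts of called members changed by more than 1.5 times under 3 settings. The fit of only the groups compared estimates the spread from the libraries of those groups alone. In it the count was 9 in place of 14 for 9mTSCmKO against 9mCON, 0 in place of 3 for rapamycin in 9mCON and 3 in place of 1 for rapamycin in 3mCON. It was 6 in place of 14 for 9mTSCmKO+RM against 9mCON and 10 in place of 17 for 9mTSCmKO against 3mTSCmKO. It was 0 in place of 3 for the genotype effect by age, and 1 in place of 4 (9 months) and 8 in place of 2 (3 months) for the rapamycin effect by genotype. The share of all genes called moved the same way in each, in that order to 20.7%, 4.48%, 3.32%, 24.2%, 26%, 2.35%, 1.59% and 9.18%. Without a filter on low counts (22597 genes tested) it was 7 for 9mTSCmKO+RM against 9mCON, 1 for the genotype effect by age, and 2 and 1 for the rapamycin effect by genotype at 9 and 3 months (18%, 2.28%, 1.93% and 1.46% of all genes called). With insert size as a term, which is partly confounded with age and leaves out 9mTSCmKO+RM replicate 5, it was 8 for 9mTSCmKO against 3mTSCmKO and 0 for the genotype effect by age (12.6% and 3.59% of all genes called). DESeq2 and the other scalings kept each count within 1.5 times; the cause of the other changes was not tested.

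Leaving out 1 library gave 13 to 20 called members (4503 to 5258 of all genes) for 9mTSCmKO against 9mCON, 10 to 14 (2256 to 2544) for 3mTSCmKO against 3mCON, 14 to 19 (3733 to 4500) and 10 to 12 (2621 to 2952) for rapamycin in 9mTSCmKO and 3mTSCmKO, 2 to 4 (1073 to 1803) and 1 to 1 (35 to 70) for rapamycin in 9mCON and 3mCON, 7 to 14 (3739 to 4281) for 9mTSCmKO+RM against 9mCON, 6 to 8 (1838 to 2108) for 3mTSCmKO+RM against 3mCON, 14 to 19 (4122 to 5228) for 9mTSCmKO against 3mTSCmKO, 0 to 1 (30 to 942) for 9mCON against 3mCON, 0 to 5 (461 to 977) for the genotype effect by age (0 without 3mTSCmKO replicate 2, 5 without 9mCON replicate 2), and 3 to 5 (467 to 844) and 2 to 2 (339 to 447) for the rapamycin effect by genotype at 9 and 3 months. Signs turned only for uncalled differences near 0: Map1lc3b for rapamycin in 3mCON, from 0.0024 to -0.0075 with insert size as a term, -0.0022 with the replicate block and -0.057 to 0.081 without 1 library, Sqstm1 there (-0.092 to 0.026, positive without 3mCON replicate 5), Atg10 (-0.24 to 0.24, positive without 3mTSCmKO replicate 4) and Map1lc3a (-0.11 to 0.016, positive without 3mTSCmKO replicate 5) for rapamycin in 3mTSCmKO, and Bnip3 for rapamycin in 9mTSCmKO (-0.13 to 0.010, positive without 9mTSCmKO replicate 4). The replicate block, whose numbers did not pair the samples, gave 14 and 12 called members for genotype at 9 and 3 months (37.5% and 19.7% of all genes), 16 and 11 for rapamycin in TSCmKO (31.9% and 23.4%), 13 for 9mTSCmKO+RM against 9mCON (31.9%) and 2 for the genotype effect by age (4.73%), and at most 2 of 5 libraries correlated best with their own number. The lowest counts in a library were 62 for Atg4c, 64 for Atg10 and 84 for Atg7, for which counting alone gives a coefficient of variation of 12.7%, 12.5% and 10.9%, so that depth limits these members most.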

Other observations

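Transcription factors that control autophagy genes were among the further genes listed, and few of their own transcript levels passed a test. They are named after their values were seen. Tfe3, a relative of Tfeb, was lower in 9mTSCmKO than in 9mCON (log2 fold change -0.43 ± 0.11, adjusted p = 0.00183) and fell with rapamycin in 9mCON (log2 fold change -0.37 ± 0.11, adjusted p = 0.0214). Tfeb fell with rapamycin in 3mTSCmKO (log2 fold change -0.42 ± 0.11, adjusted p = 0.00547). Foxo1, which drives autophagy and atrophy genes in muscle when Akt is inactive, was at 32.2, 19.6, 24.9, 37.6 and 39.6 CPM in 9mCON and 30.3, 35.6, 94.1, 113 and 48.7 CPM in 9mCON+RM. The groups overlapped through replicates 1 and 2 of the treated group, and replicates 3 and 4 stood highest (log2 fold change 1.06 ± 0.30, adjusted p = 0.0185). Leaving out single libraries was not run for these genes. Foxo3 passed none of the 4 genotype and rapamycin tests in TSCmKO muscle.

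The spread of the members between mice was larger in 9mCON than in 3mCON, with a median coefficient of variation of 18.8% against 8.38%, and it was 14.4% in 9mTSCmKO and 12.2% in 3mTSCmKO. Over all genes tested the medians were 21.8%, 12.8%, 23% and 14.6% in the same 4 groups, so that the wider spread at 9 months was shared by genes in general. The highest value in any group was that of Atg10 in 3mTSCmKO (47.1%).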
